A study of Mus musculus with 15 samples.

Results

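The 38 genes described here act in the Fanconi anaemia pathway, in homologous recombination and in the DNA damage checkpoint. They were named by function, but with earlier results of these data known. Each was taken from a probe set annotated with that gene symbol alone, and where a gene had several, the one with the brightest mean signal across all 15 arrays was used. This gave 36 genes of the 19297 genes measured in the series. Xrcc2 and Rbbp8 had no such probe set and are not described. Expression was measured on Affymetrix mouse gene arrays in Myc-CaP cells, an established mouse prostate cancer line driven by Myc. Twist1 belongs to the basic helix-loop-helix transcription factors, and the Twist box is a conserved stretch near its carboxyl end. The cells carried wild-type Twist1 (WT, 3 arrays), the Twist box substitution F191G (3 arrays), the Twist1 forms labelled AQA and DQD, whose residues the labels do not spell out (3 arrays each), or the empty vector (VEC, 3 arrays). All 5 groups were transfected, selected and harvested at confluence, so the vector cells went through the same steps, and no label names a clone or a separate culture for each array. The p-values below thus refer only to array-to-array spread, which could be technical. The comparisons stated by the depositors were WT with VEC and F191G with VEC, and the series asks how a Twist box mutation alters the expression changes that Twist1 brings.

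The Fanconi core complex recognises DNA crosslinks and attaches ubiquitin to the Fancd2-Fanci pair, which then draws in nucleases. Homologous recombination copies the lost sequence from the sister chromatid: BRCA1 and its partners license the repair, and BRCA2 with its helpers prepares the broken end for the exchange of strands. The kinases ATR and ATM sense single-stranded DNA and breaks, and act through CHEK1 and CHEK2 to hold the cell cycle. Many of these genes are transcribed mainly in S phase in cycling cells, and several are known targets of E2F factors.

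Promoter windows of 250 bases before a start listed in the RefSeq promoter table (build GRCm38.p6) were available for 32 of the 36 genes. For some of them, such as Fancm, Timeless and Fancc, the window lies inside the annotated extent of the gene and not upstream of it. For 4 of them the table held several windows, and a gene was counted once if any of its windows held the letters. Of the E2F cores searched on both strands, TTCCCGC was found for 6 of these 32 genes (18.8%), against 6.19% of the 15161 genes on the arrays that had a window. The core TTTGGCG was found for 2 of the 32 (6.25%), against 1.89% of the genes with a window. The core TTTCGCG was likewise found for 2 of the 32, against 1.17%. Any of these cores was found for 10 of the 32 genes (31.2%), against 8.87%. The replication list described below had a core for 14 of 33 genes with a window, and the mitosis list for 1 of 28. The CHR letters TTTGAA, another cell cycle promoter element, were found for 2 of the 32 genes (6.25%), against 15.6%. An E-box of the form CANNTG, the general class of site bound by basic helix-loop-helix factors, was found for 17 of the 32 genes (53.1%), against 65.6%. Its form CATATG was found for 0 of the 32, against 2.88%. Its form CATCTG was found for 3 of the 32, against 13.7%. The CCAAT box was found for 16 of the 32 genes, against 38.9%. The stretches below are shown because they hold a core upstream of the annotated gene, with 18 bases on either side, and the capitals mark the core, or its reverse complement, as read on the gene's strand.
Fancb chrX:164980402-164980444, plus strand: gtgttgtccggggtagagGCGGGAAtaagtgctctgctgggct
Clspn chr4:126556842-126556884, plus strand: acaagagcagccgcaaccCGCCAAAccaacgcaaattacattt
Atad5 chr11:80089316-80089358, plus strand: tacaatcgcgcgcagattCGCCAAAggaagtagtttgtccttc
Brip1 chr11:86201356-86201398, minus strand: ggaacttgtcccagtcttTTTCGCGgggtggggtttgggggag
Bard1 chr1:71103156-71103198, minus strand: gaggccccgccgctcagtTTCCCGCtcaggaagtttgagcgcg
Fancb, Clspn and Atad5 were among the genes that fell in WT cells below, while Brip1 and Bard1 did not pass the test. The other cores were in Fancm, Brca2, Topbp1, Chek2 and Fancg, where the stretch lies within the annotated extent of the gene and is not printed. Among genes with a window, a core was found in 5 of the 20 that passed the test in WT cells and in 5 of the 12 that did not. These are matches of letters and show no binding.

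The values are log2 intensities, and each gene is set only against itself, since the brightness of different probe sets cannot be compared. Pearson correlations between arrays ran from 0.975 to 0.998 over all genes, and the lowest was 0.992 once WT replicate A was left out. WT replicate A therefore stood apart from the other 14 arrays, and the counts and the differences past the test that rest on it are given with and without it. Twist1 itself had log2 values of 6.77, 6.85 and 6.75 in WT cells, against 6.45, 6.71 and 6.13 in VEC cells. The 3 WT values lay above the 3 VEC values, but the difference of 0.36 (SE 0.147) did not pass the test (adjusted p = 0.129), and the design text states that samples were normalized by Twist1 expression in a form it does not give. Of the luminal prostate markers, Krt18, Epcam and Cdh1 were below the lowest array median on all 15 arrays, and Krt8 and Hoxb13 were not. All 4 endothelial markers and 5 of 6 haematopoietic markers were below that median on all 15 arrays. The sixth, the macrophage marker Cd68, averaged 7.10 ± 0.33 in WT cells and 6.48 ± 0.13 in VEC cells (log2, SD, n = 3 each) and was the 1 marker past the test (limma adjusted p = 0.0269). Of the 7 fibroblast markers, Pdgfra averaged 7.55 in WT cells and 7.16 in VEC cells (adjusted p = 0.0802). The WT minus VEC differences of the others were -0.04 for Col1a1, -0.03 for Col1a2, -0.01 for Col3a1, -0.07 for Dcn, -0.06 for Lum and 0.10 for Thy1. Among these, 3 (Dcn, Lum and Thy1) were below the lowest array median on all 15 arrays. Of the 3 basal markers, Krt14 averaged 5.64 ± 0.12 in WT cells and 6.27 ± 0.58 in VEC cells (adjusted p = 0.0546), and Krt5 and Trp63 were below the lowest array median throughout. The mean of the 7 fibroblast markers ranged over 5.91 to 6.002 in WT arrays and 5.89 to 5.94 in VEC arrays, that of the 6 haematopoietic markers over 5.04 to 5.16 in WT arrays and 4.98 to 5.06 in VEC arrays, and that of the basal markers over 5.72 to 5.79 in WT arrays and 5.79 to 6.23 in VEC arrays. Their part in the results below was not tested.

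In WT cells most of the repair and checkpoint genes were lower than in VEC cells. Of the 36 genes, 23 fell and 0 rose (limma, adjusted p under 0.05 over all genes), where 5.72% of all genes tested fell and 7.06% rose. All 36 fitted differences were negative, with a median of -0.84 on the log2 scale, where the median over all genes was -0.01. In 34 of the 36 genes every WT array was below every VEC array, which was the case for 16.4% of all genes. At an unadjusted p under 0.05 the count was 31, against 27.6% of all genes. Among the 23 genes that fell, 7 had at least a 2-fold difference, and without WT replicate A 0 of the 36 genes did. RNA came from whole cultures, so fewer cells expressing a gene and less of its RNA per cell cannot be told apart. Without WT replicate A, 8 genes fell (Fancl, Fancm, Rad51ap1, Brca2, Fanca, Rad54l, Fancb and Exo1), against 1.69% of all genes, and the median difference was -0.44. There, 28 genes were at an unadjusted p under 0.05, against 19.8% of all genes. The count also rested on the vector arrays: it was 3 when VEC replicate A was left out, 13 for VEC replicate B and 0 for VEC replicate C, where 31 genes were at an unadjusted p under 0.05. Within the labelled batches the median difference was -1.02 in batch A, which holds WT replicates A and B and VEC replicates A and B, and -0.56 in batch B. In batch A, 0 genes passed the test in limma (21 at an unadjusted p under 0.05). Batch B holds 1 WT and 1 VEC array, so its differences have no replicates of their own. Counts for batch A, and those without an array other than WT replicate A, stand without the share of all genes in that fit. A low count there can also come from fewer calls over all genes.

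**Figure D1:**
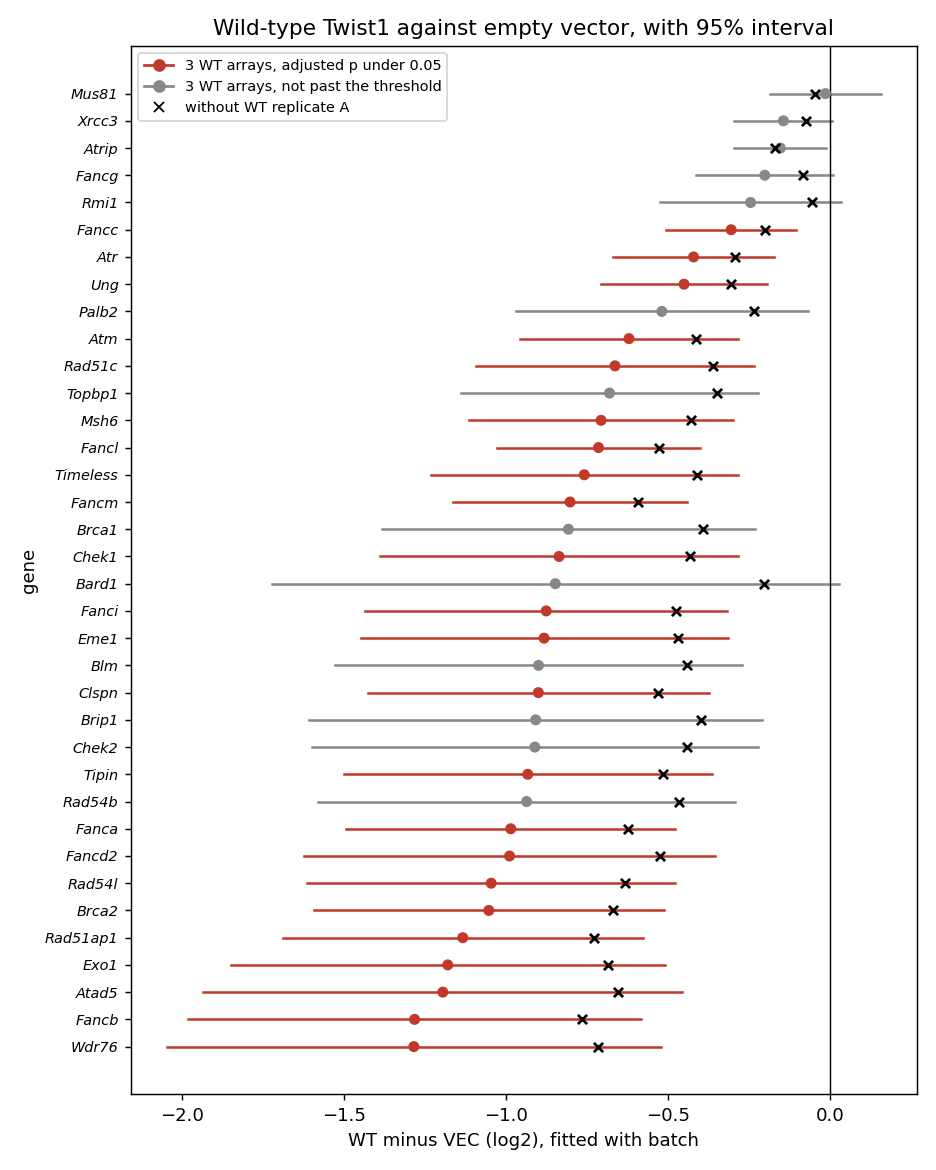
Fitted WT minus VEC difference (log2, horizontal axis) for each of the 36 genes, with its 95% interval as a line, and the difference without WT replicate A as a cross. The 23 red genes passed the test, and every point and cross lies below 0, with the crosses nearer to 0 for all but Atrip and Mus81.

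Of the 8 Fanconi genes, 7 passed the test, with a median difference of -0.84, and without WT replicate A these were 4 and -0.53. Fancl, the ubiquitin ligase subunit of the core complex (probe set 10374746), had log2 values of 6.53, 7.19 and 6.94 in WT replicates A, B and C, against 7.53, 7.50 and 7.78 in VEC replicates A, B and C. The same order of replicates is kept throughout. Fancl fell by 0.71 on the log2 scale (SE 0.145, limma adjusted p = 0.0117), and all 3 WT arrays were below the lowest VEC array. Its difference was -0.53 without WT replicate A (adjusted p = 0.0296). Fancl, with Fancm and Rad51ap1, passed the test in 5 of the 6 fits that each left out 1 WT or VEC array, the exception being that without VEC replicate C. Fancm, the DNA translocase that anchors the core complex (probe set 10396030), had values of 5.72, 6.44 and 6.19 in WT cells, against 7.06, 6.71 and 6.99 in VEC cells. Its difference was -0.80 (SE 0.167, adjusted p = 0.0126), and -0.59 without WT replicate A (adjusted p = 0.0332).

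Fanca, a scaffold subunit of the core complex (probe set 10582501), had values of 7.29, 8.26 and 8.38 in WT cells, against 9.19, 8.77 and 8.92 in VEC cells. It was 1.98-fold lower in WT cells (log2 difference -0.99, adjusted p = 0.0199), and differed by -0.62 without WT replicate A (adjusted p = 0.0332). The WT replicates B and C of Fanca lay close together well above replicate A. Fancb, the X-linked core subunit whose promoter stretch is shown above (probe set 10603135), had values of 5.59, 7.03 and 7.11 in WT cells, against 7.90, 7.76 and 7.92 in VEC cells. Fancb was among the 3 genes with the largest difference, -1.28 (SE 0.324, adjusted p = 0.0249), and -0.77 without WT replicate A (adjusted p = 0.0358). The target of the core complex, Fancd2 (probe set 10540738), had values of 6.03, 7.36 and 7.36 in WT cells, against 8.02, 7.77 and 7.93 in VEC cells. Its difference of -0.99 passed the test (adjusted p = 0.0439), but the -0.52 left without WT replicate A did not (adjusted p = 0.0964). The partner Fanci differed by -0.88 (adjusted p = 0.0434) and the core subunit Fancc by -0.30 (adjusted p = 0.0492). These were -0.48 and -0.20 without WT replicate A, and neither then passed the test. Fancg, another core subunit, averaged 7.22 ± 0.19 in WT cells and 7.43 ± 0.11 in VEC cells (log2, SD, n = 3 each) and did not pass the test (adjusted p = 0.206).

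Among the BRCA and mediator genes, 4 of the 10 measured passed the test, with a median difference of -0.88, and without WT replicate A these were 3 and -0.39. Brca2, a mediator of strand exchange (probe set 10527801), had log2 values of 6.80, 7.997 and 7.79 in WT cells, against 8.65, 8.42 and 8.68 in VEC cells. Its difference of -1.05 on the log2 scale (SE 0.250, adjusted p = 0.0197), 2.07-fold lower, was -0.67 without WT replicate A (adjusted p = 0.0338), and the highest WT array was below the lowest VEC array. Rad51ap1, which stimulates strand pairing (probe set 10548086), had values of 5.53, 6.67 and 6.69 in WT cells, against 7.46, 7.29 and 7.54 in VEC cells. Its difference was -1.13 (SE 0.257, adjusted p = 0.0169), and -0.73 without WT replicate A (adjusted p = 0.0233). Rad54l, a motor protein of recombination (probe set 10515257), had values of 6.09, 7.30 and 7.24 in WT cells, against 8.04, 7.80 and 7.92 in VEC cells, a 2.06-fold lower level (log2 difference -1.05, adjusted p = 0.0243). It differed by -0.63 without WT replicate A (adjusted p = 0.0379). The recombination gene Rad51c differed by -0.66 (adjusted p = 0.0457), and by -0.36 without WT replicate A (adjusted p = 0.129).

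Brca1, the ubiquitin ligase that starts this route (probe set 10391461), did not pass the test. Its log2 values were 6.74, 7.997 and 7.84 in WT cells, against 8.48, 8.20 and 8.32 in VEC cells, a difference of -0.81 (SE 0.267, adjusted p = 0.0636). The WT and VEC arrays did not overlap, and the means were 7.53 ± 0.69 in WT cells and 8.33 ± 0.14 in VEC cells (SD, n = 3 each). Its partner Bard1 (probe set 10355329) had values of 6.22, 8.04 and 8.07 in WT cells, against 8.29, 8.18 and 8.40 in VEC cells, the widest WT spread of the 36 genes. The Bard1 difference was -0.85 (adjusted p = 0.198), and -0.20 without WT replicate A. The other 2 Bard1 probe sets differed by -0.98 (adjusted p = 0.0230 over all probe sets) and -0.76 (adjusted p = 0.138), so the call for this gene depends on the probe set. The BRCA1-associated helicase Brip1 differed by -0.91 (adjusted p = 0.0831), the BRCA1-BRCA2 bridge Palb2 by -0.52 (adjusted p = 0.121), and the motor protein Rad54b by -0.94 (adjusted p = 0.0561). Xrcc3, which works in a complex with Rad51c (probe set 10402721), had values of 7.37, 7.52 and 7.62 in WT cells, against 7.63, 7.67 and 7.64 in VEC cells. Its difference of -0.14 was among the 3 smallest and did not pass the test (adjusted p = 0.208), although the groups did not overlap.

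Of the 5 measured genes for resection, helicases and nucleases, 2 passed the test, and 1 (Exo1) without WT replicate A. Exo1, the exonuclease that resects broken ends (probe set 10352048), had log2 values of 6.76, 8.17 and 8.16 in WT cells, against 9.01, 8.71 and 8.91 in VEC cells. It was 2.27-fold lower (log2 difference -1.18, adjusted p = 0.0283), and -0.69 on the log2 scale without WT replicate A (adjusted p = 0.0447). Eme1, the partner of the Mus81 nuclease, differed by -0.88 (adjusted p = 0.0443), and by -0.47 without WT replicate A (adjusted p = 0.0995). Mus81 itself (probe set 10465072) had values of 7.36, 7.30 and 7.24 in WT cells, against 7.19, 7.41 and 7.34 in VEC cells. The groups overlapped, and the Mus81 difference of -0.01 had a 95% interval of -0.18 to 0.16. Blm, the Bloom helicase, differed by -0.90 (adjusted p = 0.0592), and its partner Rmi1 by -0.24 (adjusted p = 0.249), with a second Rmi1 probe set at -0.30 (adjusted p = 0.301). Neither passed the test.

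Of the 10 checkpoint and fork protection genes, 7 passed the test, with a median difference of -0.80, and -0.42 without WT replicate A. Atm, the kinase that answers double-strand breaks (probe set 10593526), had log2 values of 7.13, 7.85 and 7.59 in WT cells, against 8.27, 7.99 and 8.17 in VEC cells. Atm was 1.54-fold lower (log2 difference -0.62, adjusted p = 0.0242), and its fitted difference of -0.41 without WT replicate A did not pass the test (adjusted p = 0.0734). Atr, the kinase that answers stalled forks (probe set 10587892), had values of 7.05, 7.51 and 7.32 in WT cells, against 7.88, 7.56 and 7.71 in VEC cells. WT replicate B was just below VEC replicate B, and the difference was -0.42 (SE 0.115, adjusted p = 0.0332), and -0.29 without WT replicate A. Atrip, the partner of ATR (probe set 10596967), had values of 7.52, 7.53 and 7.41 in WT cells, against 7.60, 7.64 and 7.68 in VEC cells. Its difference of -0.15 did not pass the test (adjusted p = 0.148), and WT replicate A was not its lowest array.

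Chek1, the kinase below ATR (probe set 10592201), had log2 values of 7.84, 8.995 and 8.99 in WT cells, against 9.44, 9.40 and 9.49 in VEC cells. It was 1.79-fold lower (log2 difference -0.84, adjusted p = 0.0488), and differed by -0.43 without WT replicate A (adjusted p = 0.116). Clspn, the adaptor that brings CHEK1 to ATR and the second gene with a promoter stretch above (probe set 10508151), had values of 5.63, 6.68 and 6.71 in WT cells, against 7.39, 7.03 and 7.30 in VEC cells. Its difference was -0.90 (adjusted p = 0.0318), and -0.53 without WT replicate A. Atad5, which unloads the sliding clamp PCNA behind the fork (probe set 10379363), had values of 5.59, 7.17 and 7.08 in WT cells, against 7.90, 7.69 and 7.84 in VEC cells, and was 2.29-fold lower (log2 difference -1.20, adjusted p = 0.0389). The Atad5 difference was -0.66 without WT replicate A (adjusted p = 0.0801). Both genes of the fork protection pair fell, with Timeless at -0.76 (adjusted p = 0.0406) and Tipin at -0.93 (adjusted p = 0.0365), and without WT replicate A at -0.41 and -0.52. Topbp1, the activator of ATR, just missed the threshold at -0.68 (adjusted p = 0.0524), and Chek2, the kinase below ATM, differed by -0.91 (adjusted p = 0.0779). None of the 10 passed the test without WT replicate A, where 9 were at an unadjusted p under 0.05.

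All 3 of the remaining genes passed the test. Wdr76, a WD repeat protein (probe set 10475362), had log2 values of 5.93, 7.52 and 7.58 in WT cells, against 8.43, 8.14 and 8.31 in VEC cells. Its difference of -1.28 (SE 0.353, adjusted p = 0.0333) was, with that of Fancb, the largest of the 36 genes. It was -0.72 without WT replicate A (adjusted p = 0.0527), behind Fancb at -0.77 and Rad51ap1 at -0.73. Msh6, which recognises base mismatches (probe set 10447417), had values of 7.08, 7.94 and 7.80 in WT cells, against 8.43, 8.20 and 8.31 in VEC cells, and differed by -0.71 (adjusted p = 0.0299), and by -0.43 without WT replicate A. Ung, the glycosylase that removes uracil from DNA (probe set 10524450), had values of 7.14, 7.46 and 7.65 in WT cells, against 7.86, 7.81 and 7.92 in VEC cells, and differed by -0.45 (adjusted p = 0.0288), and by -0.30 without WT replicate A. None of the 3 passed the test without WT replicate A.

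**Figure D2:**
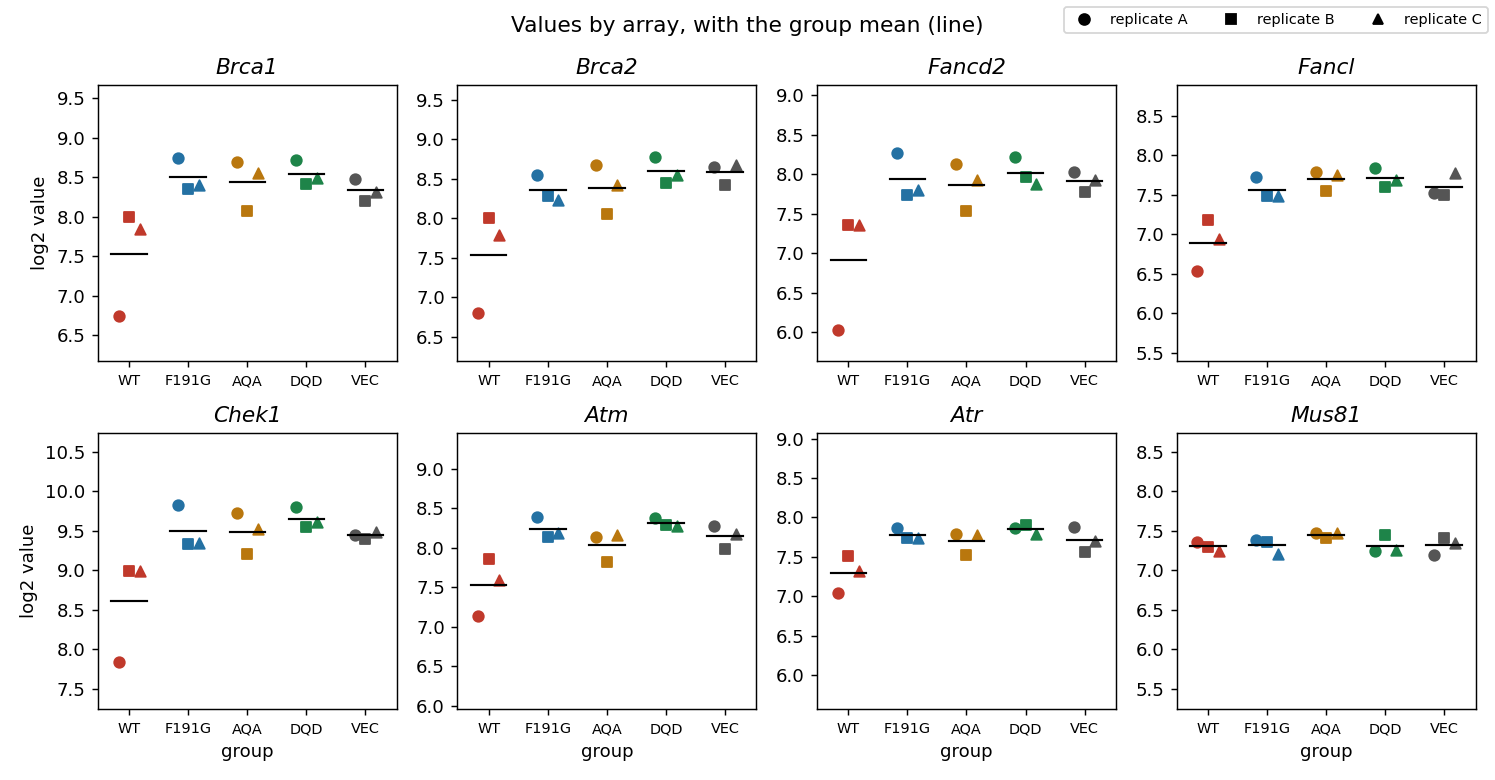
Log2 values of 8 of the genes by group (horizontal axis), one marker per array with the replicate letter as its shape and the group mean as a line. WT replicate A is the lowest point in every panel but that of Mus81, and WT replicates B and C lie below the VEC arrays in every panel but Mus81.

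WT replicate A had the larger shift. It was the lowest of the 15 arrays for 34 of the 36 genes, the exceptions being Mus81 and Atrip, against 18.4% of all genes. Its median difference from the VEC mean was -1.61, where WT replicates B and C had a median of -0.46. Those 2 arrays were nevertheless both below the lowest VEC array for 34 of the 36 genes, against 22.6% of all genes, with Rmi1 and Mus81 as the exceptions. The genes differed in how much of the shift of replicate A the other 2 WT arrays shared. For Fancl and Fancm the shift in replicates B and C was 50.3% and 50.2% of that in replicate A, while for Bard1 and Rmi1 it was 11.4% and 10.6%. The median SD of the genes was 0.62 over the WT arrays and 0.12 over the VEC arrays, where that of all genes was 0.10 and 0.08.

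**Figure D3:**
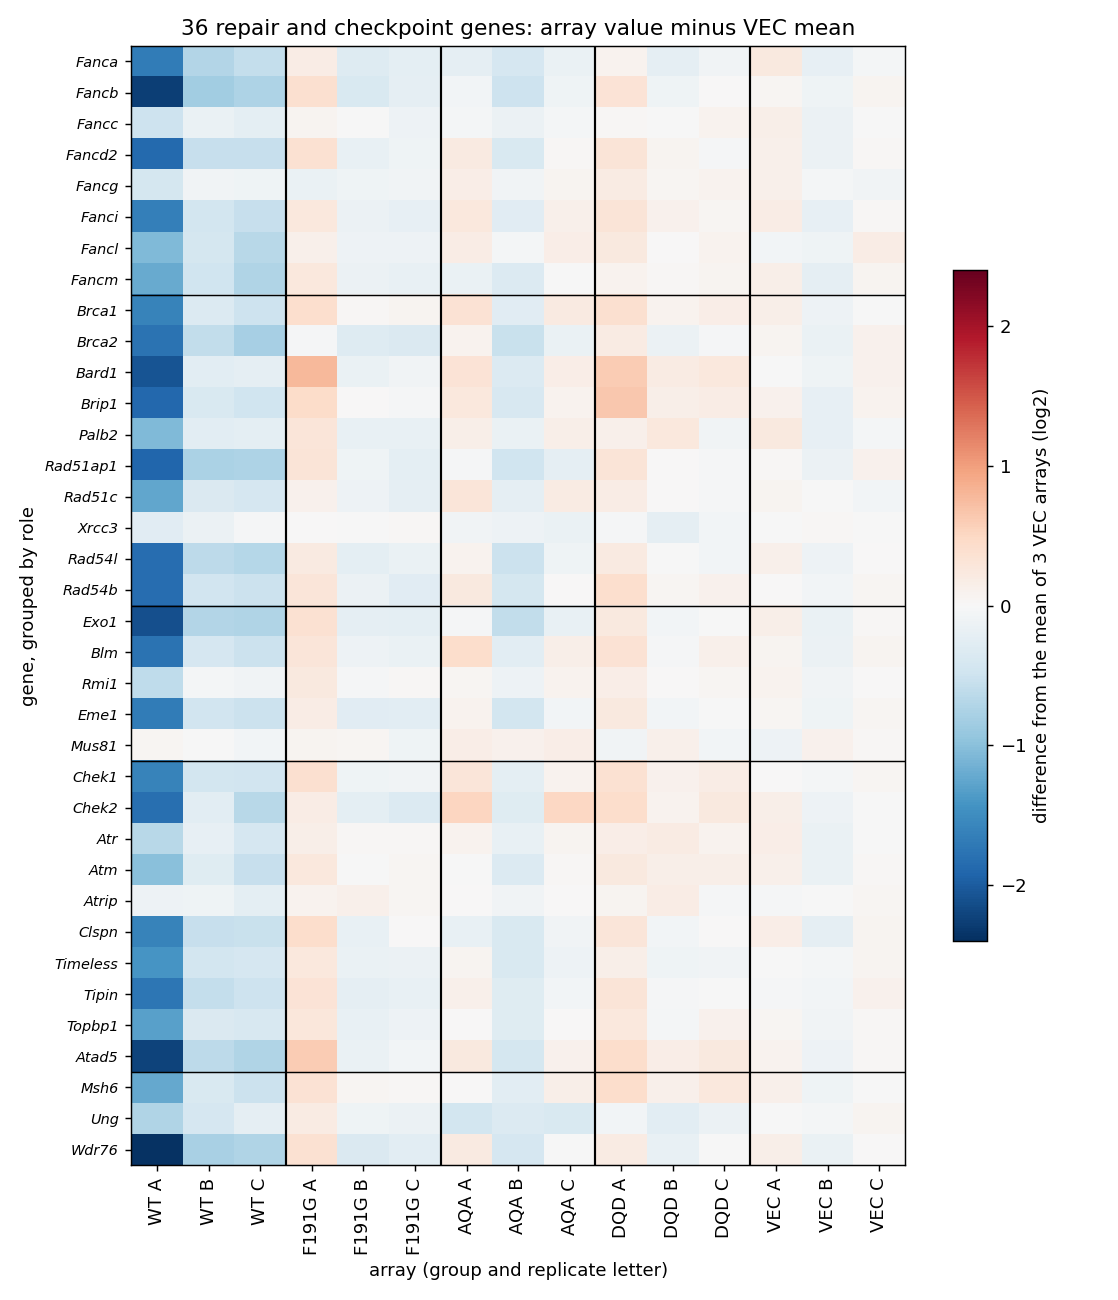
Each cell is the log2 value of a gene (rows, grouped by role) on an array (columns) minus the mean of the 3 VEC arrays, on a colour scale centred at 0. The WT replicate A column is the most negative, WT replicates B and C are less so, and AQA replicate B is the lowest of the mutant arrays.

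Genes of DNA replication and mitosis, which mark cycling cells, had lower mean levels on the same arrays. Of 41 replication genes, 29 fell in WT cells and 0 rose, with a median difference of -0.93, where 5.72% of all genes fell, and 10 fell without WT replicate A, with a median of -0.48, where 1.69% of all genes fell. Of 33 mitosis genes, 3 fell (9.09%) and 0 rose, and 1 fell without WT replicate A (3.03%), shares near those of all genes. Of these 33, 31 were at an unadjusted p under 0.05, against 27.6% of all genes, with a median of -0.75, and without WT replicate A 12 were, against 19.8%, with a median of -0.30. On WT replicate A the mean over the replication list was -1.67 from the VEC mean and that over the mitosis list -1.64, beside -1.39 over the 36 repair and checkpoint genes. On WT replicates B and C these means were -0.51 and -0.51 for replication, -0.32 and -0.41 for mitosis, and -0.41 and -0.47 for the 36 genes. The part of cell cycling in the repair gene result was not tested.

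**Figure D4:**
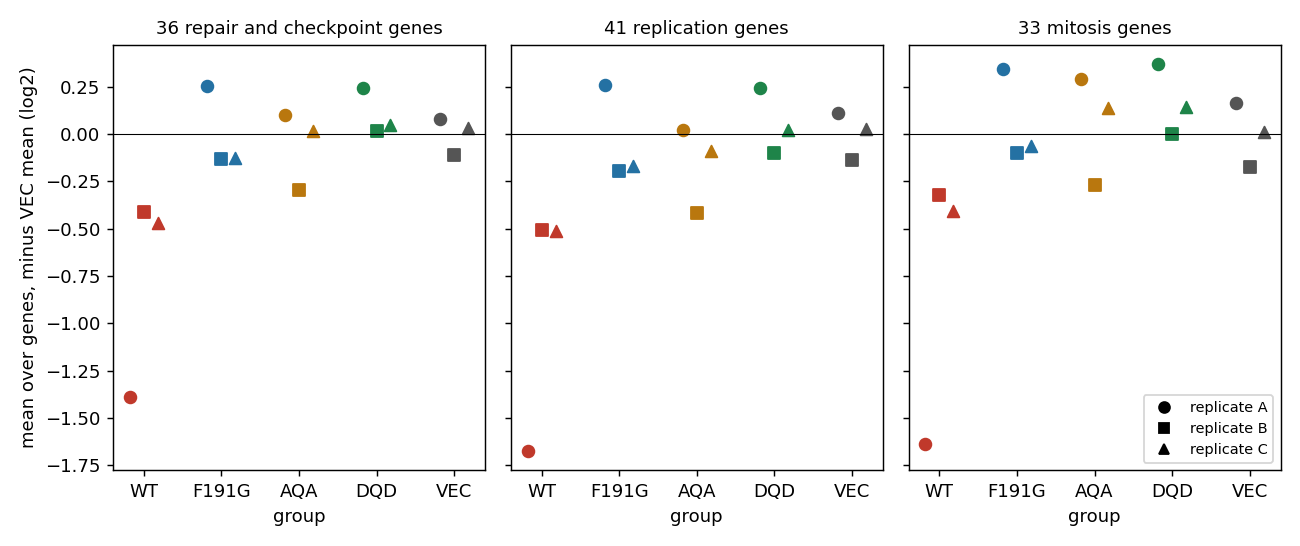
Mean over the genes of a list, minus the mean of the 3 VEC arrays (log2, vertical axis), with one marker per array and the replicate letter as its shape. In all 3 panels WT replicate A lies lowest, WT replicates B and C lie below the VEC arrays, and AQA replicate B lies below its own group's other arrays.

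Further repair genes came from lists that hold none of the 36, and their counts stand against the 5.72% of all genes that fell in WT cells and the 7.06% that rose. Of 33 other homologous recombination genes, 12 fell (36.4%) and 1 rose, with a median difference of -0.40, and -0.26 without WT replicate A. Nbn, a subunit of the complex that senses breaks, differed by -0.60 (adjusted p = 0.00528), the telomere helicase Rtel1 by -0.73, the nuclease-helicase Dna2 by -1.08, and the single-strand binding subunit Rpa2 by -0.83. These 4 also passed the test without WT replicate A, at -0.49, -0.51, -0.71 and -0.55. Of 28 other checkpoint genes, 6 fell (21.4%) and 0 rose, among them Rhno1 at -0.50, which binds the checkpoint clamp, and Cdk2 at -0.55, the kinase of S phase entry. Without WT replicate A, Cdk2 passed the test at -0.34 and Rhno1 did not at -0.40. Of 18 other Fanconi genes, 2 fell (11.1%) and 1 rose (5.56%): Cenpx differed by -0.42, Usp1, which removes ubiquitin from FANCD2, by -0.72, and Rev3l, the catalytic subunit of a translesion polymerase, by 0.55. Without WT replicate A, Cenpx, Usp1 and Rev3l differed by -0.30, -0.41 and 0.33, and none passed the test. Of 6 mismatch repair genes, 3 fell (Pms1, Lig1 and Pms2, at -0.54, -0.93 and -0.56), while all 6 fitted differences were negative and at an unadjusted p under 0.05, with a median of -0.53. Without WT replicate A, Pms1, Lig1 and Pms2 differed by -0.36, -0.52 and -0.34, and none passed the test. Of 11 end joining genes, 6 fell and 1 rose. Of 23 base and nucleotide excision repair genes, whose median was -0.06, 2 fell (Smug1 and Rad23b, 8.70%) and Xpa, the damage-verifying factor of nucleotide excision repair, rose by 0.52. The shares of the other Fanconi and the excision repair genes lie near those of all genes. With WT replicate A left out, where 1.69% of all genes fell and 2.68% rose, the counts that fell were 6 for homologous recombination, 1 for checkpoint, 0 for Fanconi, 0 for mismatch, 2 for end joining and 1 for excision repair genes, and 1 end joining gene (Paxx) and 1 excision repair gene (Xpa) rose.

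None of the 36 genes differed past the test between a mutant form and the vector, and the 3 comparisons share the VEC arrays. For F191G against VEC, 0 of the 36 passed the test in limma and 0 were at an unadjusted p under 0.05, against 0.0985% and 11.7% of all genes. The median difference was -0.02, beside -0.03 over all genes, and the largest was that of Brca2 at -0.23 (95% interval -0.78 to 0.32). For AQA against VEC, 0 passed and 1 (Ung) was at an unadjusted p under 0.05, against 0.881% and 15.7% of all genes, with a median of -0.05, beside -0.04 over all genes. For DQD against VEC, 0 passed and 0 were at an unadjusted p under 0.05, against 0.814% and 24.0% of all genes, with a median of 0.10, beside -0.05 over all genes. The fitted difference from VEC was positive for 31 of the 36 genes in DQD cells, 15 in F191G cells and 11 in AQA cells. Intervals were wide: the 95% intervals of single genes reached from -0.86 to 1.08 for F191G, from -0.93 to 0.93 for AQA and from -0.78 to 1.25 for DQD. The spread behind these intervals and p-values is shared by all groups and includes WT replicate A, which lay apart for most of these genes. A miss of the threshold, adjusted or unadjusted, thus does not show that these cells had the same levels as the vector cells.

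Ung had the largest difference of the 36 genes in AQA cells. Its log2 values were 7.43, 7.55 and 7.49 in AQA cells, against 7.86, 7.81 and 7.92 in VEC cells, so the groups did not overlap. The difference was -0.38 (SE 0.119, adjusted p = 0.151). It passed the test without WT replicate A, which enters this fit through the shared spread (adjusted p = 0.0483), and with array weights (adjusted p = 0.0256). Ung had values of 8.05, 7.76 and 7.72 in F191G cells and 7.80, 7.61 and 7.73 in DQD cells. Chek2 was the gene with the largest positive difference in AQA cells, with values of 8.20, 7.41 and 8.19, against 7.83, 7.57 and 7.68 in VEC cells, where replicate B went the other way from A and C and the test was not passed (adjusted p = 0.741).

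Set against WT cells, all 36 fitted differences were positive for each of the 3 mutant forms, in comparisons that share the WT arrays with each other and with the vector comparison. Without WT replicate A, 35 of the 36 were positive for F191G (Fancg was negative), 34 for AQA (Xrcc3 and Ung were negative) and 35 for DQD (Xrcc3 was negative). For F191G against WT, 13 of the 36 genes rose, against 3.18% of all genes, with a median difference of 0.83, beside -0.03 over all genes. At an unadjusted p under 0.05 there were 33, against 27.7% of all genes. The F191G arrays were all above the WT arrays for 33 genes, against 15.0% of all genes. The genes with the smallest p were Fancl at 0.68, Fancm at 0.78, Atm at 0.71, Msh6 at 0.85, Rad51ap1 at 1.12 and Atr at 0.49, with adjusted p between 0.0315 and 0.0372 in limma. These 6 differences without WT replicate A were 0.51, 0.59, 0.53, 0.60, 0.76 and 0.37, in the same order. Fancl had log2 values of 7.72, 7.48 and 7.49 in F191G cells, against 6.53, 7.19 and 6.94 in WT cells, and every F191G array was higher than every WT array. Brca1, which did not pass the test against the vector, rose by 0.97 (adjusted p = 0.0496), with values of 8.74, 8.36 and 8.40 in F191G cells, and differed by 0.60 without WT replicate A. When WT replicate A was left out, only Rad51ap1 passed the test (0.76, adjusted p = 0.0431), against 0.212% of all genes, while 29 were at an unadjusted p under 0.05 (19.1% of all genes) and the median was 0.49. The count was 0 without any 1 of the F191G arrays, 30 when WT replicate B was left out and 23 for WT replicate C. These last counts stand without the share of all genes in those fits. They can also follow the number of calls over all genes.

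For AQA against WT, 1 gene rose, against 0.306% of all genes, and 31 were at an unadjusted p under 0.05, against 25.0%, with a median difference of 0.78, beside -0.04 over all genes. That gene was Fancl, with log2 values of 7.79, 7.55 and 7.75 in AQA cells, against 6.53, 7.19 and 6.94 in WT cells, a difference of 0.81 (SE 0.145, adjusted p = 0.0455), and 0.62 without WT replicate A. The AQA arrays did not overlap the WT arrays for 28 of the 36 genes, against 11.7% of all genes. Ung had the smallest difference among the 23 genes that had fallen in WT cells, at 0.07 (95% interval -0.18 to 0.33), and was at -0.07 without WT replicate A. Without WT replicate A, 0 genes passed the test in limma, where 0% of all genes did, and 23 were at an unadjusted p under 0.05, against 14.8%, with a median of 0.40. The count was 0 without AQA replicate A, AQA replicate C or WT replicate C, 11 without AQA replicate B and 27 without WT replicate B. The share of all genes in those fits is not given, and these counts can also follow the number of calls over all genes.

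For DQD against WT, 30 of the 36 genes rose, against 11.8% of all genes, with a median difference of 0.97, beside -0.07 over all genes. At an unadjusted p under 0.05 there were 34, against 40.8% of all genes, and the groups did not overlap for 33, against 20.2%. All 8 Fanconi genes and all 10 checkpoint genes were among the 30. Atad5 had log2 values of 8.23, 7.96 and 8.05 in DQD cells, against 5.59, 7.17 and 7.08 in WT cells, a 2.77-fold higher level (log2 difference 1.47, adjusted p = 0.0167), and 0.98 without WT replicate A. Fancl had the smallest p, with values of 7.84, 7.60 and 7.69 in DQD cells, against 6.53, 7.19 and 6.94 in WT cells, and rose by 0.82 (adjusted p = 0.00940). Msh6 rose by 0.97, Fancm by 0.86, Atm by 0.79 and Rad51ap1 by 1.23. The differences without WT replicate A were 0.66 for Fancl, 0.72 for Msh6, 0.67 for Fancm, 0.61 for Atm and 0.87 for Rad51ap1. The 6 genes that did not pass were Palb2 (adjusted p = 0.0502), Bard1 (adjusted p = 0.0512), Ung, Rmi1, Xrcc3 and Mus81. Without WT replicate A, 27 genes rose, against 5.51% of all genes, 32 were at an unadjusted p under 0.05, against 30.8%, and the median was 0.64. Without DQD replicate A, 0 passed the test and 30 were at an unadjusted p under 0.05. The share of all genes in that fit is not given, and a low count can also come from fewer calls over all genes.

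**Figure D5:**
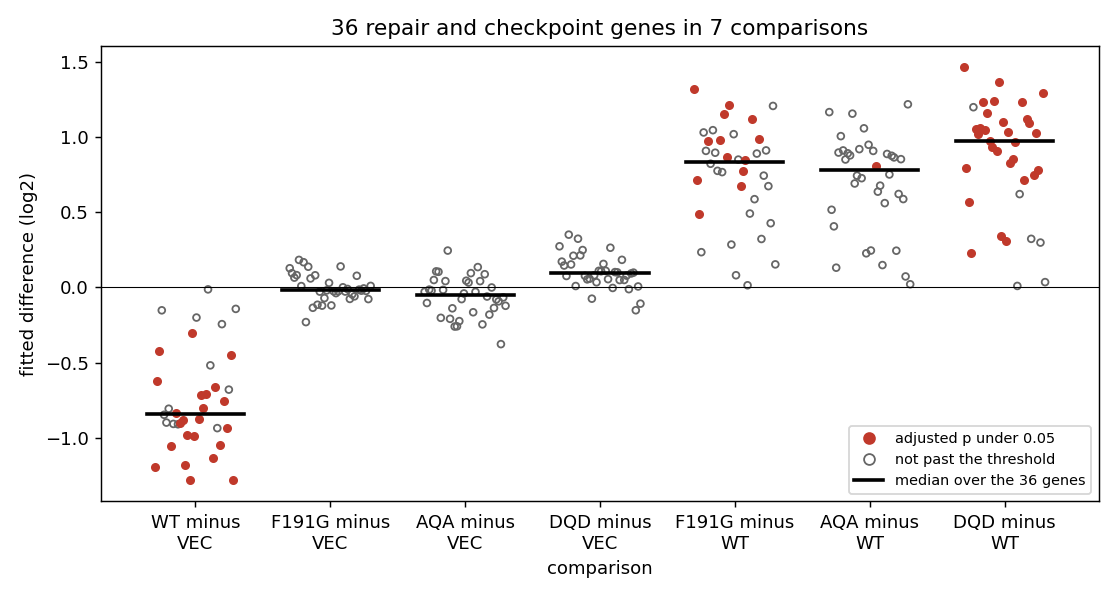
Fitted difference (log2, vertical axis) of each of the 36 genes in 7 comparisons, each named as the first group minus the second, with the median as a black bar and genes past the test in red. The medians lie at -0.02, -0.05 and 0.10 for F191G, AQA and DQD against VEC, at -0.84 for WT against VEC, and at 0.83, 0.78 and 0.97 for F191G, AQA and DQD against WT.

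Arrays of 1 mutant group also differed among themselves. AQA replicate B had a mean over the 36 genes of -0.30 from the VEC mean and was below the lowest VEC array for 33 of them, against 32.0% of all genes, while AQA replicates A and C were at 0.10 and 0.02. F191G replicate A was at 0.26 and DQD replicate A at 0.24, each above the highest VEC array for 28 of the 36 genes, against 24.4% of all genes. F191G replicates B and C were both at -0.13, and DQD replicates B and C at 0.02 and 0.05. Brca2 shows this spread, with log2 values of 8.55, 8.27 and 8.23 in F191G cells, 8.67, 8.05 and 8.41 in AQA cells and 8.78, 8.45 and 8.54 in DQD cells. Chek1 had values of 9.82, 9.33 and 9.35 in F191G cells, 9.73, 9.20 and 9.53 in AQA cells and 9.80, 9.55 and 9.61 in DQD cells. For both genes the AQA replicate B array was the lowest of its group and the F191G replicate A array the highest of its group. The medians against VEC within batch A, which holds 1 array each of F191G and DQD, were 0.27 and 0.26, and within batch B, which holds 1 VEC array, -0.18 and -0.0048.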

How the data were processed

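Total RNA of Myc-CaP cells was labelled with an Affymetrix whole-transcript kit and read on 15 mouse gene arrays, per the labels' protocols. The deposited values are log2 intensities, made with RMA, per the submitters' processing notes, which also name limma and give no versions. A further scaling on Twist1 expression is named in the design text, without its form. Of 23811 probe sets, 20852 had 1 gene symbol in the platform annotation, 1440 had several and 1519 had none listed, and 19297 genes remained after the probe set with the highest mean was kept per gene. The number of arrays, 3 a group, limits the precision. limma 3.58.1 in R 4.3.3 fitted group and labelled batch (8 and 7 arrays) over all 15 arrays, and p-values were adjusted by Benjamini-Hochberg over all genes with a threshold of 0.05. The fit was tested on simulated data with known changes and the same spread of a gene in all groups. That test does not cover the wider spread of the 36 genes over the WT arrays. The genes, the other gene lists and the tests were chosen with earlier results of these data known. All 36 genes could be named. Values per array are given for up to 14 genes with the smallest p in WT against VEC, for genes that passed in other comparisons, for a fixed set of well-known genes, and for the 3 largest and 3 smallest differences. Of each other list, up to 4 genes with the smallest p are named. Alternatives changed the batch term, the normalization, the filter on dim genes, the moderation and the arrays. Figures were drawn with matplotlib 3.10.9.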

Additional observations from a re-analysis of the deposited data

How the results depend on the processing

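The direction of the WT against VEC difference was more stable than its calls: the median over the 36 genes stayed negative under all 19 alternatives run, while the count of genes that fell ran from 0 to 27 under changes of the model, values or batch and from 0 to 29 when 1 array was left out. It was 9 with the replicate letter as a block beside batch, 0 with only the 6 WT and VEC arrays (27 at an unadjusted p under 0.05), 14 with trend and robust moderation, 15 with array weights, 0 in batch A, 8 in batch B and 0 when Twist1 was added as a covariate (29 at an unadjusted p under 0.05). For F191G against WT, the count of 13 became 26 with no batch term, 7 with the replicate block in place of batch, 0 with the replicate block and batch, 0 with only the groups compared, 20 without the dimmest 33.3% of genes, 6 with trend and robust moderation, 0 in either batch alone, 3 with the Twist1 covariate, and 0 to 30 when 1 array was left out. For AQA against WT, the count of 1 became 14 with no batch term, 0 with either replicate block, with only the groups compared, in batch A and with the Twist1 covariate, 3 without the dimmest 33.3%, 24 with array weights, and 0 to 27 when 1 array was left out. For DQD against WT, the count of 30 became 0 with only the groups compared and in batch A, 15 in batch B, and 0 to 33 when 1 array was left out. For AQA against VEC, Ung was the 1 gene called with array weights, and the count was 0 to 1 when 1 array was left out. The median of F191G against VEC was 0.27 in batch A and ran from -0.215 to 0.051 when 1 array was left out, and that of DQD against VEC was 0.26 in batch A. Batch B holds 1 WT, 1 VEC and 1 AQA array and batch A 1 DQD and 1 F191G array, so every count in batch B set against WT or VEC, and the batch A counts for DQD and F191G, have an arm of 1 array, with the spread borrowed from the groups of 2 arrays there (3 residual degrees of freedom in batch A, and 2 in batch B, which come from DQD and F191G), and the lone array is assumed to vary like those. Fits of 2 groups have fewer arrays, and the cause of the other changes was not tested. The share of all genes called in each alternative is not given beside these counts. A low count can thus also come from fewer calls over all genes. Samples with the same letter had deviations from their group means that correlated between -0.85 and 0.13 over the genes. For samples with different letters these correlations ran from -0.43 to 0.70. Deviations from a mean of 3 arrays sum to 0 and are thus tied to each other, so this check cannot show or exclude pairing. The main fit did not take the letters to pair the arrays. With 3 arrays a group and a spread shared by all 5 groups, the median standard error of a gene's difference from VEC was 0.25 (log2). That spread includes the WT arrays, over which the median SD of the 36 genes was 0.62. It was 0.12 over the VEC, 0.22 over the AQA, 0.15 over the DQD and 0.24 over the F191G arrays. Both points limit what the comparisons of the mutant forms with VEC can show.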

Other observations

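In WT cells, 5 of 19 E2F and pocket protein genes fell (26.3%) and 2 rose (10.5%) against VEC, where 5.72% of all genes fell and 7.06% rose, so the share that rose is near that of all genes. E2f1, an activator of S phase genes, differed by -0.78 (limma adjusted p = 0.0419), the repressor-class factor E2f4 by -0.35 (adjusted p = 0.0164) and their dimer partner Tfdp1 by -0.38 (adjusted p = 0.0126). Rbl2, the pocket protein p130 of resting cells, rose by 0.79 (adjusted p = 0.0123) and the dimer partner Tfdp2 by 0.51 (adjusted p = 0.0110). Without WT replicate A, Rbl2, Tfdp2 and Tfdp1 passed the test, at 0.60, 0.40 and -0.31. There E2f1 differed by -0.42 and E2f4 by -0.26, and neither passed the test.

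Of 13 p53 pathway genes listed, 10 were measured, and Trp53, Cdkn1a and Bax had no probe set with that symbol alone. Of the 10, 4 rose (40%) and 1 fell (10%) in WT cells, where 7.06% of all genes rose and 5.72% fell. The share that fell is that of 1 gene and lies near that of all genes. The antiproliferative gene Btg2 rose by 2.22 (adjusted p = 0.00997), the p53-induced nuclear protein gene Trp53inp1 by 2.18 (adjusted p = 0.00390) and Mdm2, the ubiquitin ligase for p53, by 0.61 (adjusted p = 0.00546). Sesn1 rose by 0.9999 (adjusted p = 0.0414), and Ccng1 differed by -0.23 (adjusted p = 0.0328). Without WT replicate A the differences of Btg2, Trp53inp1 and Mdm2 were 1.67, 1.79 and 0.51 and passed the test, while Sesn1 and Ccng1 did not. There 3 of the 10 (30%) rose, where 2.68% of all genes did.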
